A study of Drosophila melanogaster with 4 samples.

Results

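Long stretches of the chromosome arms that carried no cluster of histone H3 enrichment were described in fruit fly embryos (*Drosophila melanogaster*, strain Oregon-R, wild type), taken 14 to 16 h into development. A gap is the stretch between the end of a cluster and the start of the next, and the 613 gaps of 20 kb or more among 17816 gaps on 2L, 2R, 3L, 3R, 4 and X were chosen by the cluster positions of the series-wide list. Since those positions selected the gaps, their number, length and place are given as a description with no test. The study comprised 2 libraries of chromatin immunoprecipitation and sequencing (ChIP-seq) made with 1 anti-H3 antibody and 2 input libraries of chromatin DNA without immunoprecipitation. All 4 came from the same strain, genotype and stage, and whole embryos were used, so every value is a mixture of cell types. The labels name no separate embryo collections, so differences between replicates may be technical. Regions of enrichment (clusters) were deposited for the whole series and for each ChIP replicate, with a position and 1 score each. On the 6 arms the series-wide list held 17822 clusters over 24.5% of the sequence, replicate 1 held 3645 over 4.93%, and replicate 2 held 2147 over 2.82%. Read depth was unknown, and the number of clusters per list set the precision.

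Histone H3 is a core protein of the nucleosome, the unit around which DNA is wrapped, and it is present along nearly all chromatin. A map of H3 is therefore commonly used to normalise maps of modified histones and to find places where nucleosomes are denser or sparser than average. A gap between clusters says that no enrichment passed the authors' threshold there, and it does not say that H3 was missing. In flies the DNA next to the centromeres and most of chromosome 4 are heterochromatin, which is rich in repeats and transposable elements, and short reads from repeats often cannot be placed at 1 position. How much of each gap is repeated sequence was not measured, and its part in what follows was not tested. Coordinates refer to FlyBase release 5. Genome sequence and genes of release 5 were not used here, so the gaps are named by position.

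The long gaps were few in number but held a large part of the DNA outside clusters. They made up 3.44% of all gaps and held 20.6 Mb, which is 17.1% of the 120.4 Mb of the arms and 22.7% of their cluster-free DNA. Their median length was 26739 bp, with quartiles of 22683 and 35113 bp, against a median of 2774 bp over all gaps. Between 20 and 30 kb there were 373 gaps, between 30 and 50 kb 184, between 50 and 100 kb 45, and above 100 kb 11. Those 11 gaps held 1.70 Mb. The number rests on the weakest and shortest clusters too: with only clusters of 1301 bp or more, the shortest length in the replicates, it was 1191, and with only the upper 50% of clusters by score it was 1557. Close to the limit of 20 kb the gaps ran on without a break. The shortest included were 20013 bp (2L 21067043-21087055), 20017 bp (3L 13858929-13878945) and 20019 bp (2L 9286729-9306747), and the longest left out were 19995 bp on 2R, 19993 bp (X 7665997-7685989) and 19987 bp (3R 13583573-13603559).

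Chromosome 4 and X had the largest share of their length in long gaps, and 3R had the smallest. On chromosome 4, 10 gaps took up 92.5% of the chromosome. X had 169 gaps over 24.5% of its length, 2L had 134 over 18.9%, 3L had 134 over 17.7%, 2R had 76 over 12.6% and 3R had 90 over 9.00%. Per Mb, this was 7.40 gaps on chromosome 4, 7.54 on X, 5.82 on 2L, 5.46 on 3L, 3.59 on 2R and 3.23 on 3R. X thus held 1.68 times as many long gaps per Mb as 2L, 2R, 3L and 3R together (interval 1.40 to 2.01, from an exact 95% binomial interval that covers counting error only). X also held fewer clusters per Mb, 122 against 156 on those 4 arms, and this ratio takes no account of that. Against clusters placed evenly at random along each arm, X held 1.30 times the expected number of long gaps. Those 4 arms together held 1.83 times the expected number, so relative to cluster density X was not the richer. The median length of a long gap was alike on 5 of the arms, from 25169 bp on 3R to 27339 bp on X. On chromosome 4 it was 120115 bp.

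**Figure D1:**
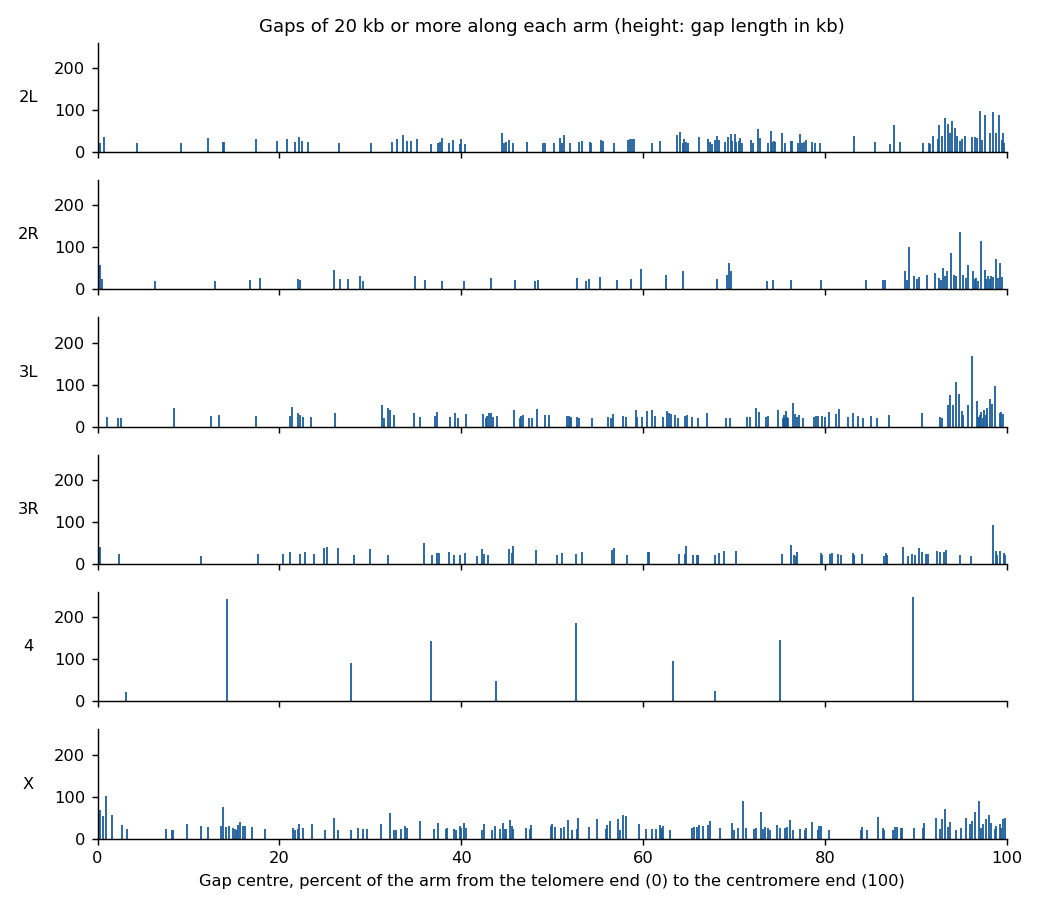
Each vertical line is 1 gap of 20 kb or more, placed by its centre along the arm (horizontal axis, percent of the arm from the telomere end to the centromere end) and as high as the gap is long (vertical axis, kb). Lines crowd and grow taller toward the centromere end of 2L, 2R and 3L, 3R shows few tall lines, X carries lines along its whole length, and 4 is filled by 10 gaps.

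The 10 longest gaps lay on chromosome 4, near the centromeres of 3L and 2R, and at the tip of X. Both of the longest were on chromosome 4, at 15577-263675 (248099 bp) and 1038353-1280711 (242359 bp), followed by 547043-733401 (186359 bp) on the same chromosome. The longest on another arm was 3L 23526947-23695891, of 168945 bp, 0.93 Mb from the centromere end. Chromosome 4 also held 264715-410931 (146217 bp) and 784469-927591 (143123 bp). On 2R, gaps of 137593 and 114555 bp lay at 94.8% and 97.2% of the arm, counted from the telomere end. The list ended with 3L 23106089-23213311 (107223 bp) and X 150939-253635 (102697 bp). The longest gap of 2L was 22272753-22371321 (98569 bp), and that of 3R was 364577-457669 (93093 bp). X alone had its longest gap at the telomere end, centred 22.2 Mb from its centromere end, and the other 5 arms had theirs centred within 1.10 Mb of the centromere end.

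On chromosome 4 most of the few clusters bordered a long gap, and some stood alone between 2 of them. The 10 gaps measured 23629 to 248099 bp, and 7 of them were longer than 50 kb. Of the 17 clusters, 14 bordered a long gap. A long gap lay on either side of 6 of them, and these 6 islands measured 1011 to 2367 bp, with scores of 0.36 to 0.45. The score is the authors' own value, taken here to be on a log2 scale. From 422207 to 1020011, over 597805 bp, 6 gaps followed each other with only 5 clusters between them, so that 98.7% of the stretch was empty. Replicate 1 touched 3 of the 10 gaps by at least 1 bp and replicate 2 touched none, since its list held 0 clusters on this chromosome.

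On the 5 arms other than chromosome 4, long gaps were more numerous than an even spread of the same clusters would give. The ratio of observed to expected numbers grew there with gap length. Over all 6 arms, the 613 gaps found compare with 379 expected if the clusters of each arm were placed evenly at random along it, from the closed formula for such spacings, a ratio of 1.62. This expectation is a yardstick and not a test. The observed number exceeded it on 2R (76 against 33.4, a ratio of 2.28), 3R (90 against 41.3, 2.18), 3L (134 against 79.5, 1.69), 2L (134 against 82.4, 1.63) and X (169 against 130, 1.30). Chromosome 4 had fewer than its own low density gives (10 against 12.4). On 2L, 2R, 3L and 3R together, 845 gaps reached 15 kb against 654 expected, 159 reached 30 kb against 32.1, and 34 reached 50 kb against 0.659. On X the numbers were 295 against 279 at 15 kb, 73 against 28.3 at 30 kb and 15 against 1.34 at 50 kb. At 5 kb the order was turned, with 4537 gaps against 5218 on those 4 arms and 1124 against 1280 on X. At 1 kb it was turned as well, with 13450 gaps against 14538 over all 6 arms, so the arms also held more gaps under 1 kb than even placement gives.

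**Figure D2:**
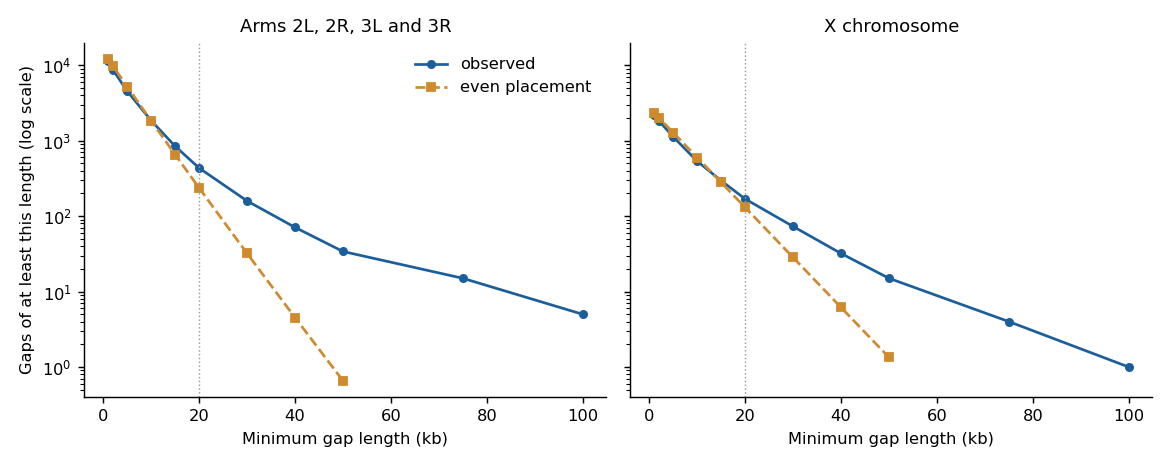
Number of gaps of at least a given length (vertical axis, log scale) by that length in kb (horizontal axis), for 2L, 2R, 3L and 3R together and for X, as observed (circles) and under even placement on each arm (squares, drawn where at least 0.5 gaps are expected). The dotted line marks the limit of 20 kb. On the autosome arms the observed curve lies below the other at 5 kb and above it from 15 kb on, with 34 observed against 0.659 expected at 50 kb.

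**Figure D3:**
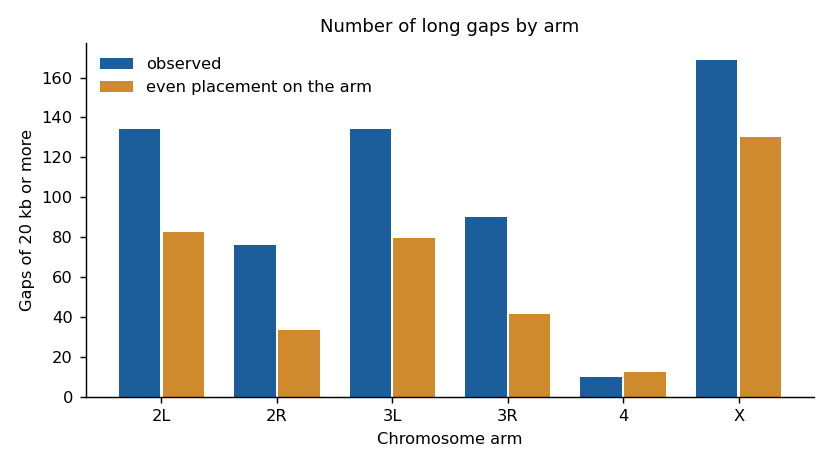
Number of gaps of 20 kb or more on each arm (left bar of each pair) beside the number that even placement of the arm's own clusters gives (right bar). The observed number is higher on 2L, 2R, 3L, 3R and X and lower on 4.

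The excess was smaller against the regional density of clusters. When the even spread was taken within each 1 Mb window with that window's own number of clusters, the 613 gaps stood against 468 expected, a ratio of 1.31. A long gap lowers the density of its own window, so this comparison is not independent of the gaps. On the 5 large arms (all but chromosome 4), 603 gaps were observed against 367 expected from the density of each arm, a ratio of 1.64. With the innermost 2 Mb of these arms left out, 486 gaps were observed against 277. That ratio was 1.75, so it was higher without the centromere ends. On 3R this was 80 against 34.4, and on X 145 against 105.

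The centromere ends of 2L, 2R, 3L and X were rich in long gaps, and that of 3R much less so. The innermost 2 Mb of the 5 large arms held 117 of their 603 gaps (19.4%, exact 95% interval 16.3 to 22.8), on 8.40% of the length. This was 11.7 gaps per Mb, against 4.46 per Mb on the rest of these arms. Long gaps took up 67.9% of these 2 Mb on 2L, 65.6% on 3L, 63.4% on 2R and 49.7% on X, but 16.5% on 3R. Elsewhere they took up 14.2% of 2L, 13.4% of 3L, 7.31% of 2R, 22.0% of X and 8.42% of 3R. The gaps near the centromere were also longer, with a median of 35427 bp against 25588 bp on the rest of the arms. Of the 49 gaps of 50 kb or more on these 5 arms, 31 lay in the innermost 2 Mb, and 11 of the remaining 18 were on X. A low number of clusters at the centromere ends was already known from these lists, so the gaps there are the same observation in other terms.

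Over the 5 large arms, long gaps were fewest in the outermost parts. Counted in parts of 20% of the length of the 5 large arms, from the telomere end to the centromere end, there were 52, 96, 121, 155 and 179 gaps, over 1.65, 2.73, 3.44, 4.51 and 7.03 Mb. The outermost 20% held 9 gaps on 2L, 6 on 2R, 7 on 3L and 5 on 3R, against 25 on X. In the outermost 2 Mb, 3 gaps were found on each of 2L, 2R, 3L and 3R and 9 on X. The tip of X carried gaps of 67821 bp (X 22769-90589), 54049 bp (X 95865-149913), 102697 bp (X 150939-253635) and 56757 bp (X 320221-376977) within its first 376977 bp. The innermost 20% held 38 gaps on 2R and 31 on 3R, against 10 and 20 in the part from 60 to 80% of the arm. On the other 3 arms it held fewer than that part, with 34 against 45 on 2L, 37 against 39 on 3L and 39 against 41 on X.

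In windows of 1 Mb, long gaps took up between 0% and 83.3% of the sequence, with a median of 12.6% over the 117 complete windows of the 5 large arms. There was no long gap centred in 7 windows, and the fullest held 17. The highest shares were found in 3L 23000001-24000000, with 16 gaps over 83.3% of the window, and in 2L 22000001-23000000, with 13 gaps over 69.0%, apart from a window of 2R at 70.2%. These windows were singled out after their values were seen. More than 40% was reached in 6 windows, and none of them lay more than 3 Mb from the centromere end. Farther out, the highest shares were 39.7% in X 3000001-4000000, with 12 gaps, 38.1% in each of 2L 16000001-17000000, with 12 gaps, and 2L 17000001-18000000, with 13 gaps, and 37.5% in 3L 18000001-19000000, with 13 gaps. On 3R and 2R no window more than 3 Mb from the centromere end exceeded 16.8%. In the X window the gaps measured 21801 to 75645 bp, the longest being X 3063143-3138787. It held 89 series-wide clusters, with 15 and 11 clusters in replicates 1 and 2.

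Long gaps often followed each other with only 1 cluster between them. Of the 613, 141 (23.0%, exact 95% interval 19.7 to 26.5) had another long gap as a direct neighbour. If the gaps of each arm were in even order, 9.17% would be expected to have such a neighbour, and without chromosome 4 the values were 22.1% observed and 7.89% expected. This expectation takes the same share of long gaps along a whole arm. It does not allow for their crowding at the centromere ends, whose part in the difference was not tested. Such a neighbour was found for 8 of 10 gaps on chromosome 4, and the share was 31.6% on 2R, 23.9% on 2L, 22.4% on 3L, 20.1% on X and 14.4% on 3R. The 141 gaps formed 59 runs, of which 46 were pairs. The run with most gaps was 3L 23475075-23874937, where 7 gaps over 399863 bp were separated by 6 clusters and 97.4% of the sequence was empty. Its gaps measured 50757, 168945, 60465, 22085, 23685, 27411 and 36139 bp in order along the arm. The 6 clusters between them were 1115 to 2481 bp long with scores of 0.30 to 0.44, and none overlapped a cluster of either replicate. Of all series-wide clusters on the arms, 19.9% overlapped replicate 1 and 11.7% replicate 2. Long runs were also found on chromosome 4 at 15577-410931 (2 gaps, 395355 bp) and at 3L 22920509-23102983 (3 gaps, 182475 bp). Others were 2L 21398839-21591287 (3 gaps, 192449 bp), 2L 21595123-21766387 (3 gaps, 171265 bp) and X 22232559-22394791 (4 gaps, 162233 bp). The longest runs on 2R spanned 208043 and 163033 bp.

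Whether the replicate lists were empty in the same places was asked next. The series-wide list is by its name a set of the same replicates, and it took in nearly all of their clusters. Emptiness of the replicates was therefore largely built in and is given as a description. Of the 613 gaps, 539 (87.9%) held no base of a replicate 1 cluster and 557 (90.9%) no base of a replicate 2 cluster, a mean of 89.4 ± 2.08% (SD, n = 2). No base of either was held by 485 gaps (79.1%, exact 95% interval 75.7 to 82.3). Among all windows of the same lengths on the same arms, 44.2% were free of replicate 1, 60.6% of replicate 2 and 32.3% of both. Chromosome 4 differed: 7 of its 10 gaps were free of replicate 1, where 78.04% of windows of equal length were, and all gaps and windows were free of replicate 2. Among the 56 gaps of 50 kb or more, 46 were free of replicate 1 and 51 of replicate 2 (82.1% and 91.1%), where 26.5% and 43.4% of windows of equal length were. The share free of both was 82.9% in the 117 gaps near the centromeres and 78.4% in the other 486 gaps of the 5 arms.

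**Figure D4:**
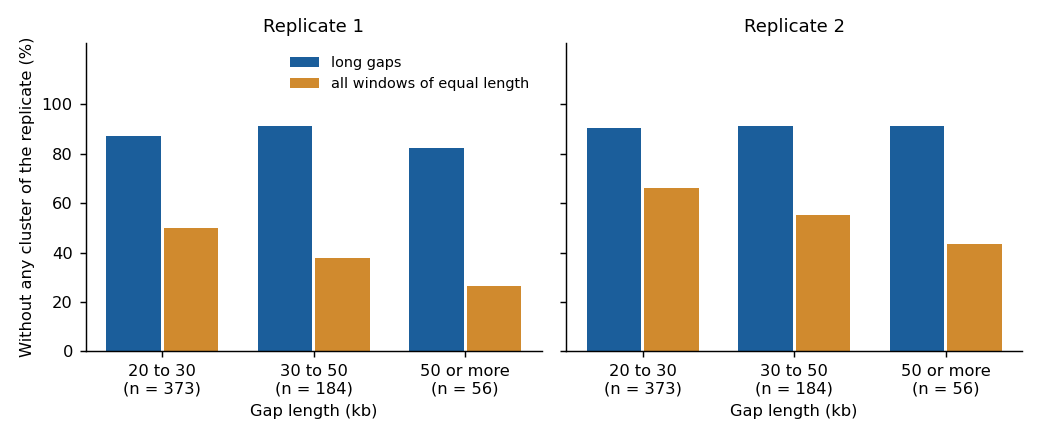
Percent of long gaps with no base of a replicate cluster (left bar of each pair) and percent of all windows of equal length on the same arms (right bar), by gap length in kb, for replicates 1 and 2. The gaps stay between 82.1% and 91.3% in all 3 length classes, whereas the windows decline with length, to 26.5% in replicate 1 and 43.4% in replicate 2.

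Most of the contacts were at the edges. Of the 72 replicate 1 clusters that touched a long gap, 69 crossed its edge and 3 lay wholly inside. In replicate 2, 43 of 56 crossed an edge and 13 lay inside. A cluster with at least 50% of its length in the gap was found in 4 gaps for replicate 1 and in 15 for replicate 2, so that 594 of 613 gaps (96.9%, exact 95% interval 95.2 to 98.1) held none. By cluster centres, the gaps held 4 clusters of replicate 1 in 20.6 Mb, or 0.194 per Mb, against 36.5 per Mb on the rest of the arms. For replicate 2 it was 15 clusters, or 0.728 per Mb, against 21.4 per Mb. The ratio of gaps to the rest was 0.0053 in replicate 1 and 0.034 in replicate 2, a mean of 0.0197 ± 0.0203 (SD, n = 2). The rest of the arms includes the series-wide clusters themselves, so a low ratio follows from how the gaps were chosen. Set against cluster-free stretches of 10 to 20 kb, the density of centres in long gaps was 0.189 times as high in replicate 1 (0.194 against 1.03 per Mb) and 0.770 times in replicate 2 (0.728 against 0.945 per Mb). These ratios rest on 4 against 25 clusters in replicate 1 and 15 against 23 in replicate 2. Shorter gaps also have more edges per Mb, and the part of edges in these ratios was not tested.

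The clusters that a replicate placed wholly inside a long gap were not shared with the other replicate. None of the 3 in replicate 1 and none of the 13 in replicate 2 overlapped the other list. Of the other clusters on the arms, 13.9% in replicate 1 and 23.5% in replicate 2 did, so most of those were not shared either. The 3 and 13 clusters lie where the series-wide list, a set of the same replicates, has no cluster. Their lack of overlap is thus largely built in, and the numbers are small. In replicate 1 they were 2L 8999793-9001108, 3L 4260028-4261443 and 3L 20883856-20885370, with scores of 0.77, 0.52 and 0.47. In replicate 2 the highest score was 1.37, at 2L 20150287-20152279, followed by 0.87 at X 12323683-12325099 and 0.86 at 2L 17052606-17054072. These 3 of the 13 clusters were named after their scores were seen. Their median score was 0.77 in replicate 2, against 0.69 in its other clusters, and 0.52 in replicate 1 against 0.55. Median length was 1417 bp against 1487 bp in replicate 2 and 1416 bp against 1520 bp in replicate 1. With 3 and 13 clusters these medians are imprecise. Only 2 gaps were touched by both replicates, 1 on 2R and the other at 3R 2903135-2926809 (23675 bp), where replicate 1 covered 0.224% of the gap and replicate 2 covered 0.207%. The gaps with most replicate clusters had 2 each, such as X 3486451-3525965 (39515 bp) and X 16991947-17020215 (28269 bp) with 2 of replicate 2, and 2L 14017213-14039397 (22185 bp) with 2 of replicate 1.

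Cluster coverage in the flanks of long gaps was below the mean of the 6 arms. Beyond the bordering cluster, series-wide clusters covered 17.9% of the bases 2 to 10 kb from an edge, 17.9% at 10 to 50 kb, 18.9% at 50 to 100 kb and 19.4% at 100 to 200 kb, against 24.5% over the arms as a whole and 29.6% over the arms outside long gaps. In both replicates the flanks were below the arms as well, with no steady change with distance. Replicate 1 covered 3.28%, 3.17%, 3.59% and 3.63% at the same distances, against 4.93% over the arms and 5.94% outside long gaps. Replicate 2 covered 1.97%, 2.00%, 2.13% and 2.03%, against 2.82% and 3.38%. These flanks include other long gaps where gaps lie close together, whereas the values outside long gaps leave all of them out. The flanks were also not matched by arm to the values they are set against. How much of the lower coverage comes from either was not tested. The stretch free of both replicate lists around the centre of a long gap had a median of 74.5 kb, whereas a base drawn from all DNA free of these lists lay in a stretch of 40.4 kb in the median. For replicate 1 alone the values were 108.4 and 59.3 kb, and for replicate 2 alone 159.2 and 101.02 kb. Long gaps were picked for having no series-wide cluster. Only 64 clusters of replicate 1 and 78 of replicate 2 on the arms lay outside that list. A long replicate-free stretch around a gap centre is thus largely set by the choice of gaps. These stretch lengths cannot show whether low coverage goes on past an edge.

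**Figure D5:**
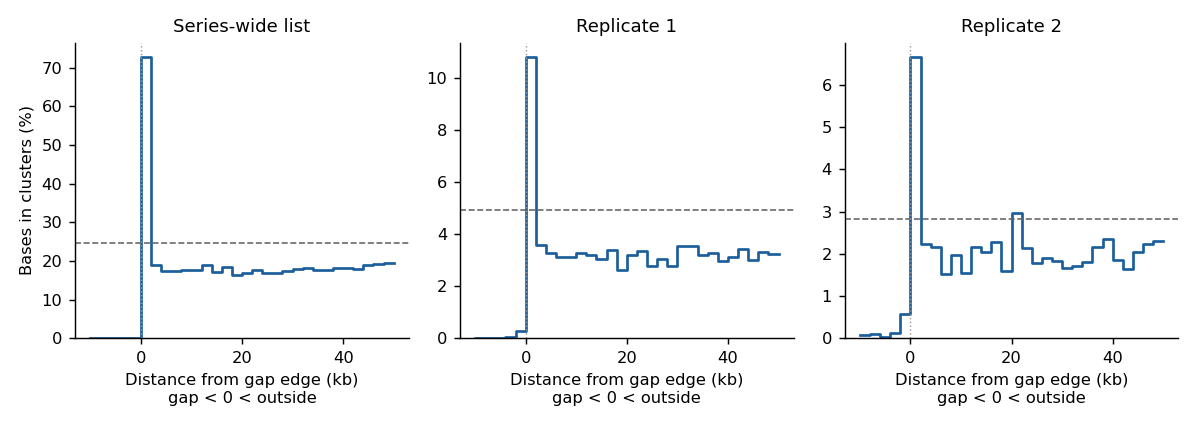
Percent of bases in clusters (vertical axis, with its own range in each panel) by distance from the edge of a long gap in kb (horizontal axis, 2 kb bins, gap to the left of 0 and flank to the right), over 1226 edges in the series-wide list and both replicates. The dashed line is the mean over the arms: beyond the bordering cluster the series-wide and replicate 1 profiles stay below it out to 50 kb, and replicate 2 does so in all bins but 1.

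Clusters at the borders of long gaps were shorter in the median than other clusters, a lower share of them overlapped a replicate, and their scores were nearly the same. These are descriptions with no test, since the same list chose the gaps. The 1144 bordering clusters had a median length of 1337 bp, against 1467 bp in the other 16678. They overlapped replicate 1 in 15.2% of cases (exact 95% interval 13.2 to 17.4), against 20.2% (19.6 to 20.8), and replicate 2 in 10.2% (8.53 to 12.1), against 11.8% (11.3 to 12.3). As the mean of the replicates this was 12.7 ± 3.52% and 16.0 ± 5.99% (SD, n = 2). Each SD is the spread between 2 lists that hold different numbers of clusters. It does not measure the spread of the difference within a replicate, and 2 replicates allow no test of that difference. The share was lower at the borders in both replicates over the 6 arms, but in replicate 2 it was higher there on 3L (12.05% against 11.2%) and on 3R (13.3% against 12.01%). Lengths differed as well, and their part in these shares was not tested. The median score was 0.42 in bordering and 0.41 in other clusters. This difference of 0.0081 came with a larger share of clusters on X, at 319 of 1144 bordering and 2422 of 16678 other clusters, where the median score was 0.47 in both. Within arms the difference was 0.016 on 2R, 0.0072 on 4 and 0.0019 on 3L, and it was -2.7e-05 on 2L, -0.00015 on X and -0.0013 on 3R.

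Among the 82 clusters that stood alone between 2 long gaps, the share that overlapped a replicate was lower still. Their median length was 1315 bp and their median score 0.42, close to those of all bordering clusters, and 8 of them (9.76%, exact 95% interval 4.31 to 18.3) overlapped replicate 1 and 4 (4.88%, 1.34 to 12.02) overlapped replicate 2. Neither replicate was overlapped by 70 of these 82, and none of the 82 overlapped both. Of all 17822 clusters, 19.9% overlapped replicate 1, 11.7% replicate 2 and 3.09% both, so most clusters anywhere lacked an overlap with a given replicate. Ordered by the nearer of their neighbouring gaps, the share that overlapped replicate 1 was 21.5%, 19.6%, 18.9%, 18.0%, 14.3% and 9.76% for distances under 1 kb, 1 to 2, 2 to 5, 5 to 10, 10 to 20 and over 20 kb. In replicate 2 the shares were 13.3%, 11.7%, 10.1%, 9.35%, 9.52% and 4.88%. Median length was 1513 bp under 1 kb, 1311 bp at 10 to 20 kb and 1315 bp over 20 kb. The highest score of an island was 1.73, at X 21772540-21774366, between gaps of 90415 and 24663 bp, and the next was 1.10, at 2L 21479152-21480152, between gaps of 80313 and 65731 bp. Neither overlapped a replicate cluster, and both were named after their scores were seen.

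Stretches between the end of an arm and its first or last cluster are not gaps between neighbours and were left out. They reached 20 kb at 9 of the 12 arm ends. The longest were 96677 bp at the telomere end of 3L and 41051 bp at its centromere end. The shortest were 2383 bp at the centromere end of chromosome 4, 5449 bp at the telomere end of X and 7667 bp at the centromere end of 3R.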

How the data were processed

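The data were 3 lists of H3 clusters, a series-wide list and a list for each of the 2 ChIP replicates. Per the labels' protocols, fixation was with 1.8% formaldehyde and the antibody was left on the chromatin for 15 h. The labels pair each input library with the ChIP library of equal number. The submitters' processing notes name Bowtie 0.12.7, and the file headers name FlyBase release 5. The sources used here do not give the program that found the clusters, its threshold or how the series-wide list was made. The authors deposited 1 score per cluster, taken here as log2 from the values: relative to its commonest score, 99.7% of the series-wide list were whole-number ratios in base 2 (relative tolerance 1e-10, denominators to 1000), and at most 2.05% in base e or 10 in any list. Series-wide starts and ends were all even numbers, while in the replicates both were even for 25.6% and 26.9% of clusters.

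Gap length is the next start minus the previous end minus 1. The number expected under even placement is (n − 1)(1 − g/F) to the power n for n clusters, cluster-free length F and minimum gap g, summed over arms. For the density of each 1 Mb window, n took the place of n − 1. The sum then ran over windows, with the shorter last window of each arm included. Windows of equal length were counted over every position of an arm. Overlap was at least 1 bp unless stated. Centromere ends were taken as the high-coordinate end of 2L, 3L and X and the low-coordinate end of 2R, 3R and 4. Intervals are exact Clopper-Pearson intervals at 95% and cover counting error only. Gap finding and the expectation were tested on simulated data. The gaps, the measures and the alternatives were chosen with earlier results of these data known. Named were the 10 longest gaps, the longest of each arm, the 3 on either side of the limit, the longest runs and the gaps with most replicate clusters, and for 2R lengths alone are given. Python 3.11.15, numpy 2.4.6, scipy 1.17.1 and matplotlib 3.10.9 were used.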

Additional observations from a re-analysis of the deposited data

How the results depend on the processing

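Of 42 alternatives to 9 results, 20 stayed within the exact binomial interval, 1.5 times the number or 1 SD of the replicates, and 22 did not. Some of these outcomes were fixed in advance, so the tally is no measure of stability. With 2 replicates each value always lies within 1 SD of their mean, so leaving either out could not move the density ratio. Leaving out a replicate, or asking for 50% of a cluster inside, can only raise or keep the share of empty gaps. The number of gaps was 1151 at 15 kb and 240 at 30 kb, 1191 when only clusters of 1301 bp or more, the shortest in the replicates, were kept, and 1557 with the upper 50% by score. The share of the arms was then 24.8%, 9.71%, 36.5% and 49.7%. Fewer clusters leave longer gaps by construction. Joined with both replicate lists, which shortens or splits some gaps, there were 606. The ratio to even placement was 1.31 with the density of each 1 Mb window, 1.22 at 15 kb, 3.37 at 30 kb and 1.75 without the centromere ends. The share of gaps free of both replicates was 96.9% when 50% of a cluster had to lie inside, and 87.9 to 90.9% with either replicate left out. The ratio of replicate density ranged from 0.0053 to 0.034 with either left out and was 0.479 against gaps of 10 to 20 kb. The share of gaps near the centromere was 11.1% within 1 Mb, 24.2% within 3 Mb, 27.2% by bases, 14.6% at 15 kb and 33.6% at 30 kb. The score difference was 0.0039 as the mean of differences within arms. No paired analysis was possible because the results come from no test and the inputs have no list of their own. Depth limits all of this in an unknown measure, since the lists hold no reads.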
